A study of Mus musculus with 8 samples.

Results

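The genes of sarcoplasmic reticulum calcium handling were examined in mouse embryos with and without the transcription factor Isl1. Members were 9 gene symbols (Ryr2, Trdn, Casq2, Hrc, Asph, Jph2, Atp2a2, Pln and Slc8a1) among the 20701 in the table, each represented by its transcript entry with the most reads over all embryos. These 9 genes had 26 of the 31507 transcript entries. One group comprised 4 Isl1-/- embryos (KO1 to KO4) and the other 4 wild-type embryos (WT1 to WT4), all C57BL/6 and collected at E8.75 with 6 somites. Each library was made from the pharyngeal mesoderm and heart of a single embryo. The knockout is carried by the whole embryo, and each library mixes heart tube and surrounding mesoderm, so the values are averages over several tissues. The comparison asks how transcripts for calcium release from and uptake into the reticulum, and for exchange across the sarcolemma, differ when Isl1 is missing.

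In a cardiomyocyte, calcium that enters through L-type channels opens the ryanodine receptor Ryr2, and the calcium released from the sarcoplasmic reticulum drives contraction. Relaxation follows when the pump Atp2a2 (SERCA2) returns calcium to the reticulum, a step held back by phospholamban (Pln), and when the sodium-calcium exchanger Slc8a1 (NCX1) carries calcium out across the sarcolemma. Casq2 buffers calcium inside the reticulum, Trdn and the junctin product of Asph tie Casq2 to Ryr2, Hrc is a luminal calcium-binding protein, and Jph2 holds the reticulum close to the sarcolemma. In the early heart tube the reticulum is sparse and exchange across the sarcolemma is needed for the first calcium transients.

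The libraries held between 18916452 and 26153039 reads in the transcript entries used, and levels are given as CPM (reads scaled to a common library size) after TMM scaling. Isl1 lay between 9.72 and 26.9 CPM in wild-type embryos and between 1.78 and 2.40 CPM in knockout embryos, which left 12.4% of the wild-type mean. KO2 is labelled as total RNA and the other 7 libraries as polyA RNA. Y-linked transcripts were present in WT4, KO1, KO3 and KO4 and near zero in the others, so the groups were not balanced for sex. Of the cardiomyocyte markers, all 12 were measured in every group. Of the 5 skeletal muscle genes, Myod1, Myog and Ckm had 16, 3 and 22 reads over all embryos, Myf5 had 135 and Actn3 had 1133.

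The exchanger Slc8a1, the junctional Jph2, the pump Atp2a2 and the release channel Ryr2 fell in Isl1-/- embryos, to 44.3%, 57.8%, 76.2% and 51.6% of their wild-type means. The other 5 members did not pass the test. These 4 of 9 members stood against 0.867% of the 14075 genes tested that were lower at an edgeR quasi-likelihood false discovery rate (FDR) under 0.05, and 0 of 9 were higher against 0.107% (0.973% of all genes passed in either direction). By the unadjusted p, 6 of the 9 were under 0.05, against 17.4% of all genes. The 2 groups did not overlap for 5 members, all lower in the knockout, namely those 4 and Trdn, against 6.33% of all genes that did not overlap in this direction and 3.96% in the other. The median log2 fold change (knockout over wild-type) of the 9 members was -0.78, beside 0.01 over all genes tested. In such bulk samples fewer cells of a type and less RNA per cell cannot be told apart.

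**Figure D1:**
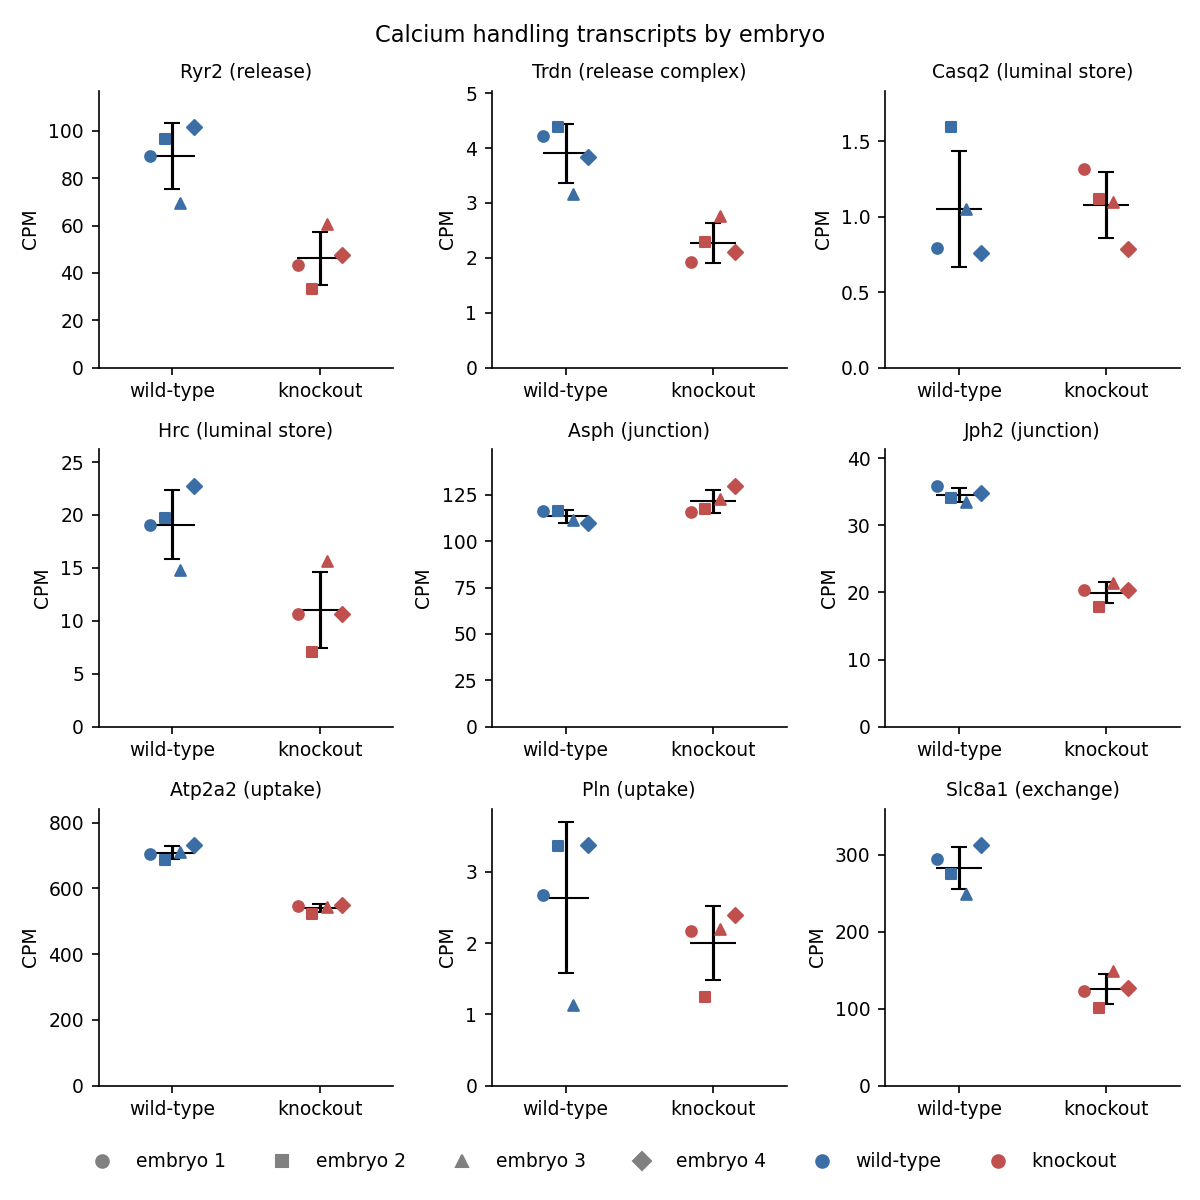
Level of each member in CPM in the 4 wild-type and 4 Isl1-/- embryos, 1 point per embryo with horizontal lines for the group means and bars for the SD. Slc8a1, Ryr2, Jph2, Atp2a2 and Trdn show no overlap between the groups, Hrc overlaps through WT3 and KO3, and Casq2, Pln and Asph overlap.

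Levels between genes were compared per length, in RPKM (reads per kilobase of transcript, scaled to library size). Atp2a2 was the most abundant member in wild-type embryos at a mean of 72.2 RPKM, 68.9% of the summed RPKM of the 9 members. Asph at 9.89 and Slc8a1 at 8.87 RPKM came next, and these neighbours overlapped between embryos. Jph2 at 4.74, Hrc at 4.58 and Ryr2 at 3.11 RPKM formed a middle range in which each overlapped the next. Pln at 0.619, Trdn at 0.506 and Casq2 at 0.243 RPKM were the lowest, with Pln and Trdn overlapping. The mRNAs of the pump and the exchanger were thus above that of the release channel at this stage, while those of Casq2, Trdn and Pln were low. In Isl1-/- embryos the means followed the same order, with Slc8a1 at 4.09 and Asph at 11.02 RPKM.

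Ryr2, the calcium release channel, is on mouse chromosome 13 (mm9, chr13:11645370-12199212, minus strand). Its level was 89.3, 96.8, 69.6 and 102 CPM in WT1 to WT4 and 43.2, 33.3, 60.5 and 47.6 CPM in KO1 to KO4. The lowest wild-type embryo, WT3, lay above the highest knockout embryo, KO3, with a small gap. The means were 89.4 ± 14.1 and 46.1 ± 11.3 CPM (SD, n = 4), and edgeR gave a log2 fold change of -0.96 (SE 0.18) and an FDR of 0.0384. A two-sided exact permutation test of log2 CPM gave p = 0.0286, the smallest that 4 against 4 allows. The FDR call was lost in a fit with the replicate block (0.104), with limma on log2 (RPKM + 1) (0.0654) and without any one of WT1, WT2, WT4, KO1 or KO4 (0.106 to 0.123), with log2 fold changes of -1.11 to -0.82 when single embryos were left out.

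Triadin (Trdn, chr10:32803289-33196515, plus strand) anchors the luminal buffer to the release channel. It was counted at 4.21, 4.39, 3.16 and 3.84 CPM in wild-type and 1.93, 2.28, 2.77 and 2.10 CPM in knockout embryos, with 43 to 101 reads per library. Every knockout embryo was below every wild-type embryo. The means of 3.90 ± 0.545 and 2.27 ± 0.362 CPM gave a log2 fold change of -0.78 (SE 0.18), which did not pass (FDR 0.0796, exact permutation p 0.0286). Without WT3 the FDR was 0.0371, at a log2 fold change of -0.87.

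Calsequestrin 2 (Casq2, chr3:101890338-101950437, plus strand), the main calcium buffer of the cardiac reticulum, was close to the limit of detection. It had 16 to 36 reads per library, which corresponds to 0.793, 1.60, 1.05 and 0.760 CPM in wild-type and 1.31, 1.12, 1.098 and 0.783 CPM in knockout embryos. The groups overlapped over nearly their whole range. The log2 fold change of 0.05 (SE 0.30, FDR 0.946) has a range of -0.55 to 0.64 at 2 SE, so a difference of the size seen for Hrc or Trdn lies outside that range while smaller ones in either direction were not detectable at this depth.

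Hrc (chr7:52590660-52594343, plus strand), the histidine-rich calcium-binding protein of the lumen, stood at 19.0, 19.7, 14.8 and 22.8 CPM in wild-type and 10.7, 7.05, 15.7 and 10.7 CPM in knockout embryos. KO3 lay above WT3, and the other knockout embryos lay below all wild-type embryos. The means of 19.1 ± 3.27 and 11.02 ± 3.55 CPM differed by a log2 fold change of -0.80 (SE 0.22) that did not pass (FDR 0.121, exact permutation p 0.0571). DESeq2 gave an adjusted p of 0.0127 for Hrc and 0.0194 for Trdn, and passed 3.29% of all genes as lower.

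Junctophilin 2 (Jph2, chr2:163161978-163223729, minus strand), which joins reticulum and sarcolemma, was at 35.9, 34.0, 33.5 and 34.7 CPM in wild-type and 20.3, 17.8, 21.3 and 20.4 CPM in knockout embryos. The gap between the groups was wide beside the spread within them. The means were 34.5 ± 1.05 and 19.97 ± 1.501 CPM, with a log2 fold change of -0.79 (SE 0.08, edgeR FDR 0.0022, exact permutation p 0.0286).

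Asph (chr4:9375216-9596491, minus strand) encodes aspartyl beta-hydroxylase and, from shorter transcripts of the same locus, junctin and junctate. The entry with the most reads, of 6662 bases, was at 116, 116, 111 and 109.8 CPM in wild-type and 116, 117, 123 and 130.0 CPM in knockout embryos. The groups overlapped, and the log2 fold change was 0.10 (SE 0.06, FDR 0.397, range at 2 SE of -0.01 to 0.21). Asph had 11 entries at this 1 locus, whose counts are not independent where exons are shared. The 3 entries of 6422 to 6662 bases had 2296 to 2999 reads per library and log2 fold changes of 0.11 in a fit of all entries (FDR 0.322 to 0.331). The 5 entries of 2505 to 2873 bases with 1088 to 1819 reads had log2 fold changes of 0.00 to 0.02. In the 3 entries with few reads, 86 to 224 per library and 1754 to 2947 bases long, the log2 fold changes were -0.27 to -0.17 (FDR 0.240 to 0.563). None of the 11 entries passed, and the entry names were not matched to the junctin or hydroxylase products.

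Atp2a2 (chr5:122903531-122952183, minus strand) encodes SERCA2, the pump that refills the reticulum. Its level was 704, 686, 712 and 733 CPM in wild-type and 545, 522, 544 and 549 CPM in knockout embryos. Every knockout embryo was below every wild-type embryo, with little spread within either group. The means of 709 ± 19.6 and 539.7 ± 12.004 CPM gave a log2 fold change of -0.39 (SE 0.05, edgeR FDR 0.00669, exact permutation p 0.0286). The entry used is annotated as a noncoding transcript of the locus, and reads in exons shared with the coding entries cannot be told apart. The log2 fold changes of all 3 entries were -0.39 to -0.35 (FDR 0.00751 to 0.0102). With a replicate block the FDR was 0.0611.

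Phospholamban (Pln, chr10:53057492-53065805, plus strand), the inhibitor of that pump, was at 2.67, 3.37, 1.14 and 3.38 CPM in wild-type and 2.16, 1.24, 2.20 and 2.40 CPM in knockout embryos, from 27 to 89 reads per library. WT3 was the lowest embryo of all and the groups overlapped. The log2 fold change of -0.40 (SE 0.34, FDR 0.579) had a range of -1.09 to 0.28 at 2 SE, which includes the change of its target pump.

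Slc8a1 (chr17:81785359-82048947, minus strand), the sarcolemmal sodium-calcium exchanger, had the largest fall of the 9. It was at 295, 275, 249.8 and 313 CPM in wild-type and 124, 102, 149 and 127 CPM in knockout embryos. The lowest wild-type embryo (WT3) was well above the highest knockout embryo (KO3). The means were 283 ± 27.3 and 125 ± 19.5 CPM, with a log2 fold change of -1.18 (SE 0.11, edgeR FDR 0.00212, exact permutation p 0.0286). Its 4 entries had log2 fold changes of -1.21 to -1.16 in the fit of all entries (FDR 0.00183 to 0.00184). Slc8a1 and Jph2 passed in all 16 alternative fits, with FDR of at most 0.0136 and 0.0166.

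Single embryos recurred at the edges of their groups. WT3 was the lowest wild-type embryo for 6 of the 9 members and KO2 the lowest knockout embryo for 6, while KO3 was the highest knockout embryo for 5 and WT4 the highest wild-type embryo for 5. KO2 is also the library labelled as total RNA, and the part of that label in its values was not tested.

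**Figure D2:**
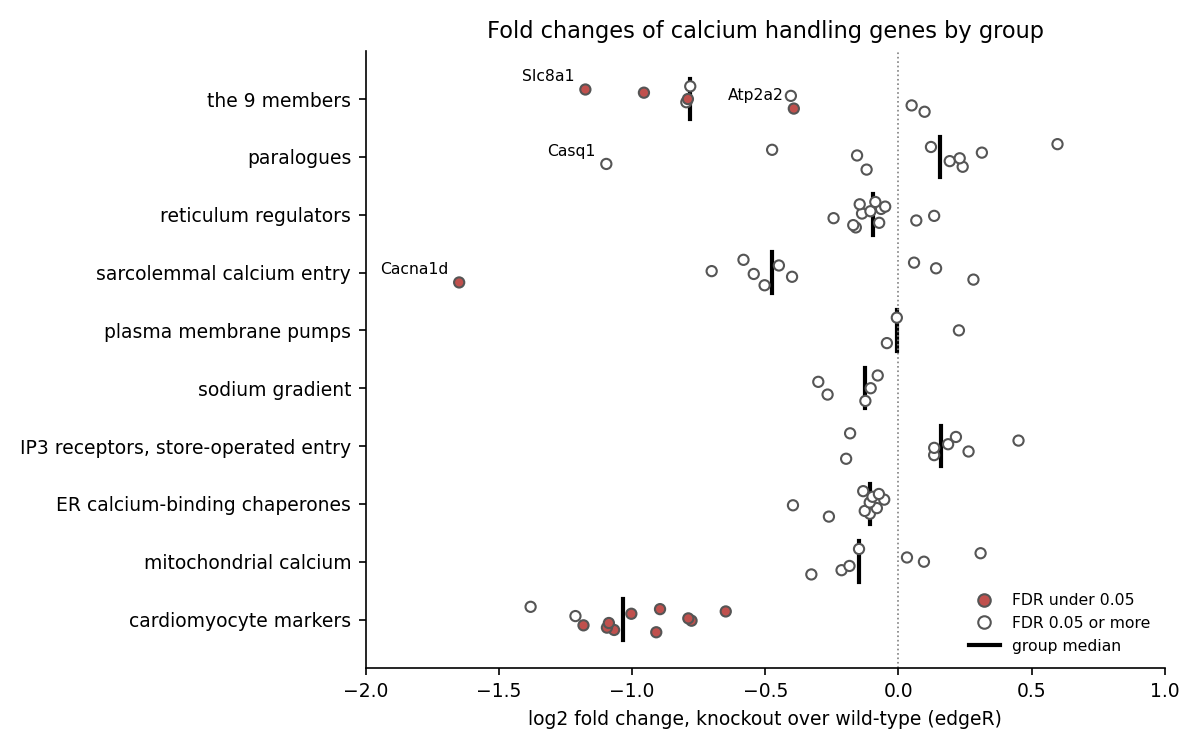
Log2 fold change (knockout over wild-type) of each gene tested, arranged by gene list, with filled points for genes past an edgeR FDR of 0.05 and a bar for the list median. The members lie around a median of -0.78 and the cardiomyocyte markers around -1.04, and Cacna1d at -1.65 is the filled point among the wider calcium lists.

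Exchange was then set against release and against uptake within each embryo, as a difference of log2 CPM. Against Ryr2, Slc8a1 stood at 1.72, 1.51, 1.84 and 1.62 in wild-type and 1.52, 1.61, 1.30 and 1.42 in knockout embryos. The groups overlapped, and the means of 1.67 ± 0.14 and 1.46 ± 0.13 differed by -0.21 (two-sided exact permutation p 0.0857, adjusted over the 2 pairs tested 0.0857). Shifts between -0.53 and 0.10 were not rejected, which includes 0. Against Atp2a2, Slc8a1 stood at -1.26, -1.32, -1.51 and -1.23 in wild-type and -2.14, -2.36, -1.86 and -2.11 in knockout embryos. Here every knockout embryo was below every wild-type embryo. The means of -1.33 ± 0.13 and -2.12 ± 0.20 differed by -0.79 (two-sided exact permutation p 0.0286, the smallest possible, adjusted 0.0571, so with 2 pairs this one could pass the adjusted threshold only if the other did too). Shifts between -1.13 and -0.36 were not rejected. By the mean difference, the exchanger to pump ratio in the knockout libraries was 57.8% of that in wild-type. The cell types that each transcript came from were not measured, so this is a ratio over mixed tissue and not one within cardiomyocytes.

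The same differences to the remaining members were computed as a description. From wild-type to knockout, Slc8a1 moved by -0.36 against Hrc, -0.39 against Jph2, -0.43 against Trdn, -0.87 against Pln, -1.25 against Casq2 and -1.28 against Asph. The release channel moved relative to the pump as well, from -3.00 ± 0.24 to -3.58 ± 0.33. The groups overlapped for this pair through WT3 at -3.35 and KO3 at -3.17.

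**Figure D3:**
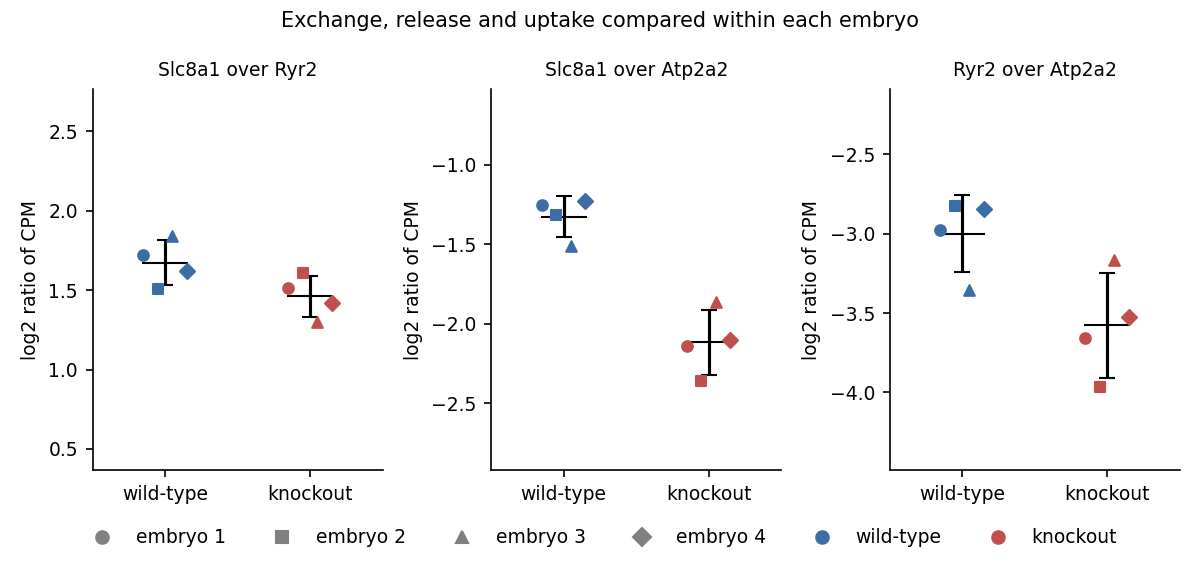
Log2 ratio of CPM for Slc8a1 over Ryr2, Slc8a1 over Atp2a2 and Ryr2 over Atp2a2, 1 point per embryo with horizontal lines for the group means and bars for the SD. The groups overlap for Slc8a1 over Ryr2 (means 1.67 and 1.46), do not for Slc8a1 over Atp2a2 (-1.33 and -2.12) and overlap through WT3 and KO3 for Ryr2 over Atp2a2 (-3.00 and -3.58).

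Promoter sequences are shown for Slc8a1, Ryr2 and Jph2, which fell, and for Casq2, which did not pass, so that their letters can be compared. They are RefSeq windows of GRCm38.p6, a later build than the mm9 of the counts, and run 5′ to 3′ in the direction of the gene from 250 bases before the annotated start to 50 bases after it. The RefSeq table held 6 of the 9 members. Capitals mark matches on either strand to 6 motifs. These were a GATA factor core with the letters GATAA, a LIM-homeodomain core of the kind bound by Isl1 with the letters CTAATG, an Nkx2-5 core with the letters CAAGTG, a T-box core with the letters GGTGTG, a MEF2 core with the letters TAAAAAT, and the CArG box by its name. Slc8a1 is chr17:81738338-81738637 (minus strand), Ryr2 chr13:12106896-12107195 (minus strand), Jph2 chr2:163397944-163398243 (minus strand) and Casq2 chr3:102086165-102086464 (plus strand).
Slc8a1: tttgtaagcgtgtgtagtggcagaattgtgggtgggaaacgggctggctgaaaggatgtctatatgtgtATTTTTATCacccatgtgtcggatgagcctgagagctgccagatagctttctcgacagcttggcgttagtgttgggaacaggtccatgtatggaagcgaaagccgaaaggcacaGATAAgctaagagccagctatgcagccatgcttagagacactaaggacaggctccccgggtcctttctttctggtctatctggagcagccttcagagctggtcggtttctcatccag
Ryr2: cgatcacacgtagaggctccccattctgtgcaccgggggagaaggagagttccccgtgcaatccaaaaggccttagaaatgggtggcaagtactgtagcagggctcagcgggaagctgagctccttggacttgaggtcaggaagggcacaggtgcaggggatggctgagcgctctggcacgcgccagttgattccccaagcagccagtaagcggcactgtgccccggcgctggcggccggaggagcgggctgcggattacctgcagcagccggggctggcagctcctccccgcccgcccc
Jph2: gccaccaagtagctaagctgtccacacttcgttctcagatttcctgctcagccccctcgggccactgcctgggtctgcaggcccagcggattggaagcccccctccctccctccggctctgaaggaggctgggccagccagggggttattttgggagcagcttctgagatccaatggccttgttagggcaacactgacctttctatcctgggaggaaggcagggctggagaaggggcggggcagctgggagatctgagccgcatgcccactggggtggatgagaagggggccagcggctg
Casq2: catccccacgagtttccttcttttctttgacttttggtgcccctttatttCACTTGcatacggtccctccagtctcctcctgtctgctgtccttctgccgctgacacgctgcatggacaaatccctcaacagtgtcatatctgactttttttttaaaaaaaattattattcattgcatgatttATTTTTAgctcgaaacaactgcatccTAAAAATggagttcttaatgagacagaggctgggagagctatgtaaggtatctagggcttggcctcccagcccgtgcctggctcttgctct

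In the Slc8a1 window the GATA core matched at 177 to 173 and at 67 to 63 bases before the start, and a reverse-strand MEF2 core at 181 to 175 bases before it overlapped the first of these. The Casq2 window held the Nkx2-5 core at 200 to 195 bases before the start and the MEF2 core at 67 to 61 and at 41 to 35. None of the 6 motifs was in the Ryr2 or Jph2 windows. Over the 6 members with a window, the GATA core was in 3 (Slc8a1, Pln and Hrc) against 25.4% of the 32851 promoter windows, the MEF2 core in 4 (those and Casq2) against 6.53%, the Nkx2-5 core in 1 against 13.6%, and the LIM-homeodomain core, the T-box core and the CArG box in 0 against 7.36%, 19.0% and 1.63%. Of the members with a window, Slc8a1 was the 1 that fell and held a match, and Casq2, Hrc and Pln, which did not pass, each held matches. Such matches describe letters only.

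Cardiomyocyte markers moved in the same direction as the members. All 12 cardiomyocyte markers were lower in the knockout and 10 passed, with a median log2 fold change of -1.04. The cardiac actin Actc1 had a log2 fold change of -0.91 (edgeR FDR 0.0480) and the atrial myosin heavy chain Myh6 one of -1.09 (edgeR FDR 0.0225). Their summed level was 3152 to 4715 CPM in wild-type and 1698 to 2557 CPM in knockout embryos. The part of this shift in the fall of the members was not tested.

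Relative to the mean log2 CPM of these markers, the members are listed by size of shift and overlap, as a description. Ryr2, Hrc, Jph2 and Trdn moved by 0.01, 0.16, 0.19 and 0.23 and Slc8a1 by -0.20 from wild-type to knockout, each with overlapping groups. Atp2a2 was higher by 0.59 relative to the markers, with overlap through WT3. Pln, Casq2 and Asph were higher by 0.67, 1.05 and 1.08 without overlap. The marker mean itself moved by -0.98 without overlap, so a gene with unchanged CPM comes out higher on this scale. In CPM the groups overlapped for Pln, Casq2 and Asph, and the share of all genes separated on this scale was not computed. The mean shifts of Ryr2, Trdn, Hrc, Jph2 and Slc8a1 thus lay between -0.20 and 0.23, and those of Atp2a2, Pln, Casq2 and Asph were larger. For Pln the groups were barely apart, with WT4 at -5.90 and KO2 at -5.89. Its fold change range at 2 SE in CPM, -1.09 to 0.28, includes the marker shift of -0.98.

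**Figure D4:**
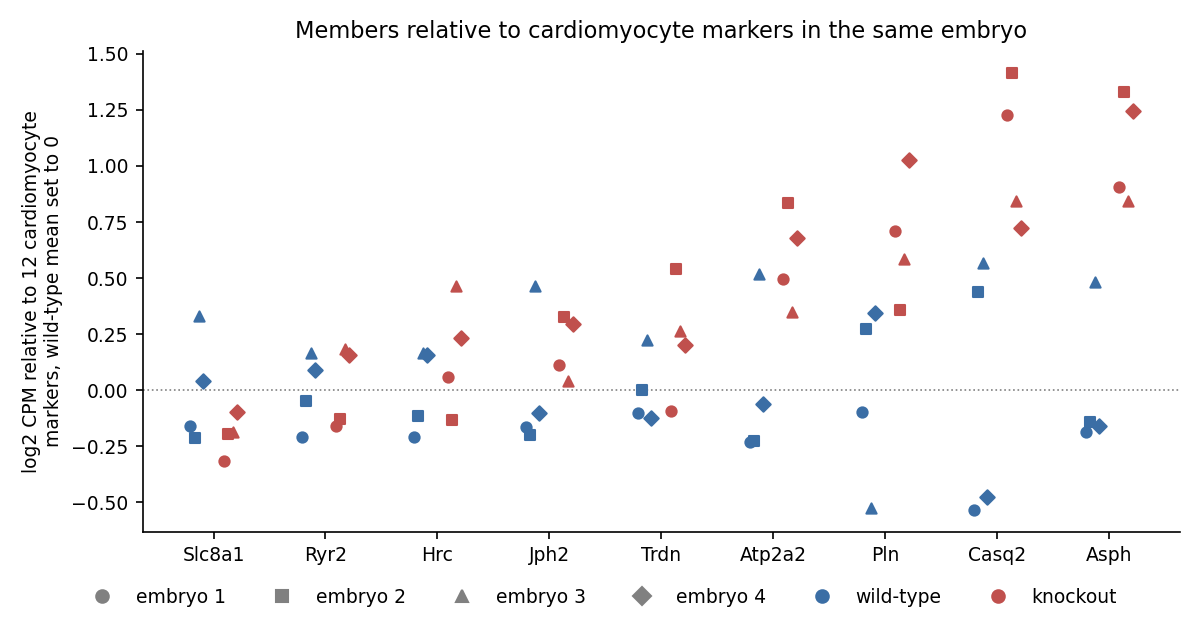
Log2 CPM of each member minus the mean log2 CPM of 12 cardiomyocyte markers in each embryo, shifted so that the wild-type mean of each gene is 0, with genes ordered by the knockout mean. Knockout points of Slc8a1 and Ryr2 scatter around the wild-type points (mean differences -0.20 and 0.01), and those of Pln, Casq2 and Asph lie above all wild-type points (0.67, 1.05 and 1.08). The marker mean itself differed by -0.98 between the groups.

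Markers of other cell types that the dissections could hold showed 0 genes past the edgeR FDR in each list. By the unadjusted p under 0.05 this was 1 of 6 endothelial genes and 0 of the erythroid, endoderm, neural and skeletal muscle genes tested. By direction alone, 6 of 6 erythroid, 6 of 7 endoderm, 5 of 6 neural and 2 of 2 skeletal muscle genes tested were higher in the knockout. Of the endothelial genes 5 of 6 were lower, and 48.8% of all genes tested were lower. Summed levels were 317 to 405 CPM in wild-type and 246 to 361 CPM in knockout embryos for the endothelial genes (Kdr, Cdh5 and others), and 301 to 347 and 313 to 407 CPM for the neural genes (Sox2, Pax6 and others). The erythroid genes (Hbb-bh1, Hba-x and others) summed to 361 to 2323 and 1232 to 3064 CPM, and the endoderm genes (Afp, Apoa1 and others) to 302 to 1259 and 273 to 1912 CPM. The spread between embryos of one group was large for blood and endoderm, and all 5 ranges including the 5.69 to 7.54 and 6.72 to 8.91 CPM of skeletal muscle overlapped between the groups.

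Beyond the 9 members, 65 of 67 genes in 8 further calcium lists were tested. Cacna1d fell, 0 genes rose and 64 did not pass, while 17 of the 65 had an unadjusted p under 0.05, against 17.4% of all genes. By direction alone 44 were lower and 21 higher, while 48.8% of all genes tested were lower. The median log2 fold change of the 65 was -0.10 beside 0.01 over all genes. Cacna1d, the L-type channel subunit Cav1.3 that supports pacemaking, was at 21.9, 18.2, 22.9 and 20.2 CPM in wild-type and 6.11, 5.35, 7.16 and 7.93 CPM in knockout embryos. The groups were far apart, with a log2 fold change of -1.65 (SE 0.14, edgeR FDR 0.00186). It was the member of the sarcolemmal entry list that passed, and 7 of the 10 genes there had an unadjusted p under 0.05 (17.4% of all genes), with a median log2 fold change of -0.48.

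Among paralogues of the members (10 tested, 0 passing, 3 with an unadjusted p under 0.05, median 0.16), Casq1 had a lower level in every knockout embryo. Casq1, the calsequestrin known from fast skeletal muscle, was at 25.2 ± 6.44 CPM in wild-type and 11.8 ± 2.62 CPM in knockout embryos (log2 fold change -1.10, SE 0.22, edgeR FDR 0.0532). Per length its wild-type mean was 7.87 RPKM, above the 0.243 RPKM of Casq2. Sarcolipin (Sln), an inhibitor of the pump in atria, had 1 read over all embryos.

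Regulators of the reticulum (12 tested, 10 lower beside 48.8% of all genes, 1 with an unadjusted p under 0.05, median -0.10) did not pass. Fkbp1a, which binds ryanodine receptors, was at 422 ± 21.2 and 356 ± 23.0 CPM without overlap (log2 fold change -0.24, edgeR FDR 0.112). The plasma membrane calcium pumps (3 tested, median -0.01) and the genes of the sodium gradient (5 tested, median -0.12) had no gene with an unadjusted p under 0.05. The pump Atp2b1 had a log2 fold change of -0.04 (edgeR FDR 0.727).

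Genes of the IP3 and store-operated routes (8 tested, median 0.16, 2 with an unadjusted p under 0.05) included Orai3, a store-operated channel, at a log2 fold change of 0.45 (edgeR FDR 0.0904), and Itpr1, the IP3 receptor, at -0.20 (edgeR FDR 0.315). All 10 chaperones of the endoplasmic reticulum were lower without passing, beside 48.8% of all genes that were lower. Their median was -0.11, with 3 at an unadjusted p under 0.05. Among them were Hspa5 at -0.40 (edgeR FDR 0.210) and Hsp90b1 at -0.08 (edgeR FDR 0.727). The mitochondrial calcium genes (7 tested, median -0.15, 1 with an unadjusted p under 0.05) included Micu2 at 0.03 and Letm1 at -0.21 (edgeR FDR 0.874 and 0.259).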

How the data were processed

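RNA of single embryos (100 ng) was sequenced. Per the paper's methods and the labels, the authors mapped reads to mm9 with STAR (introns of 20 to 500000 bases) and counted exon reads of both strands per transcript with HOMER, so antisense transcripts cannot be told apart. The deposited counts were used for the reported tests, and the authors' RPKM values to compare levels between genes and in alternative tests on log2 (RPKM + 1). The deposited fold changes and p-values of the authors' comparison were not used. Each symbol was represented by its entry with the most reads. edgeR 4.0.16 (filterByExpr, TMM, quasi-likelihood test, genotype as the only term, R 4.3.3) was fitted to 14075 genes with Benjamini-Hochberg adjustment, and was tested on simulated data first. A gene was called at FDR under 0.05. Ratios were tested by two-sided exact permutation on log2 (CPM + 0.1). Alternatives were DESeq2 1.42.0, limma 3.58.1 on log2 (RPKM + 1), upper-quartile scaling, no filter, a Y-linked term and a replicate block. Further ones were the longest transcript entry per symbol, each embryo left out in turn and, added after the data were seen, a fit of all entries. Named genes beyond the members were those past FDR in each calcium list or, with none, the highest in CPM and the lowest in p, and the 2 highest of each marker list. Of the genes this rule names, 2 are not reported here. Members and lists were chosen with earlier results of these data known. Groups are separate embryos.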

Additional observations from a re-analysis of the deposited data

How the results depend on the processing

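Genes past FDR numbered 137 in the edgeR test of all 14075 genes, 699 with DESeq2, 76 with the replicate block and 70 to 490 when single embryos were left out, where 490 came without WT3, 70 without KO4, 73 without WT1, 81 without KO1 and 85 without WT2 or WT4. Replicate numbers are shared between the groups, but same-number embryos correlated at 0.109, 0.212, 0.0863 and 0.507 in their deviations and 2 of 8 correlated best with their own number, so they were not taken as pairs. The block left 2 of the 4 members past FDR (Jph2 and Slc8a1), leaving out single embryos 3 to 5, DESeq2 6 and limma on log2 (RPKM + 1), which changes both the test and the values, 3. In the wider calcium lists 1 gene passed, against 9 with DESeq2, 2 without a filter, 4 with a Y-linked term and 4 without WT3 (range 1 to 4 over single embryos). On log2 (RPKM + 1) the Slc8a1 to Ryr2 difference was -0.33 (exact permutation p 0.0286). The added 1 is not small beside the Ryr2 means of 3.11 RPKM in wild-type and 1.67 RPKM in knockout embryos. On that scale the log2 fold change was -0.63 for Ryr2 and -0.96 for Slc8a1. On log2 CPM the Slc8a1 to Ryr2 difference was -0.27 to -0.16 over single embryos left out. The Casq2 fold change, 0.05, turned to -0.06 without WT1 or KO1 and -0.080 without WT4, in a range of -0.080 to 0.32 over single embryos. Of 144 alternative values of the members, 130 kept direction and side of the threshold. The cause of these moves was not tested. Low counts limit Casq2, Pln and Trdn.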

Other observations

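Of the 65 genes tested in the wider calcium lists, 9 were lower (Cacna1d among them) and 2 higher in the knockout without overlap of the groups, against 6.33% and 3.96% of all genes tested. The genes given here did not pass FDR and were chosen after their values were seen. Slc8a3, another sodium-calcium exchanger, was higher in every knockout embryo, at 5.07 ± 1.03 CPM in wild-type and 7.67 ± 0.848 CPM in knockout embryos (log2 fold change 0.60, SE 0.17, edgeR FDR 0.129), while Slc8a1 was lower. Its level stayed far under that of Slc8a1, at 0.940 RPKM beside 4.09 RPKM in the knockout. The L-type channel genes Cacna1c (pore), Cacnb2 (beta subunit) and Cacna2d2 (alpha2delta subunit) were lower in every knockout embryo, with log2 fold changes of -0.50, -0.45 and -0.70 (edgeR FDR 0.129, 0.114 and 0.0614). Rrad, a small GTPase that inhibits these channels, was lower as well, at -0.58 (edgeR FDR 0.101).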
